A study of Mus musculus with 2 samples.

Results

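RNA splicing machinery genes of mouse embryonic stem cells were examined for promoter peaks of SRCAP, the catalytic subunit of the complex that exchanges histone H2A for H2A.Z. The members were the protein-coding genes of GENCODE mouse release 21 whose symbols begin with Sf3a, Sf3b, Srsf, Prpf, Hnrnp, Snrnp or Lsm. Snrpa, Snrpb, Snrpc, Snrpd1, Snrpd2, Snrpd3, Snrpe, Snrpf and Snrpg were added by name. This gave 83 genes of 21938 nuclear protein-coding genes, and the rule itself uses no peak value, although it was drawn up with earlier results of these data known. The symbol rule also took in 7 genes that are not known as splicing factors, namely Lsm1, Lsm10, Lsm11, Lsm12, Lsm14a, Lsm14b and Lsmem1. A gene was counted as having a promoter peak if a peak overlapped, by at least 1 bp, the region reaching 1000 bp upstream and 500 bp downstream of any of its annotated transcription start sites (TSS).

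The data were 2 CUT&Tag peak lists from SYAT cells, a CGR8 mouse embryonic stem cell line whose Srcap alleles both carry a YPet tag with an auxin-inducible degron (AID) and which stably expresses OsTir1. Both libraries came from the control condition, in which auxinole was present to prevent basal loss of SRCAP and the medium was serum with LIF. SRCAP-YPet was mapped with an anti-GFP antibody in 200000 cells per library, with Drosophila nuclei as spike-in, and the 2 libraries are replicates of 1 group. SYAT is an engineered line, and libraries from auxin-treated or untagged cells, or without the antibody, were not analysed here. There were 6158 peaks in the list of replicate 1 and 12958 in that of replicate 2. The lists give no read numbers, so the depth behind each peak is unknown and a gene without a peak may still carry SRCAP below the calling threshold. The study describes its replicates in general as independently cultured cells, the labels of these libraries do not say so, and the cell identity could not be checked from peaks alone.

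Splicing removes introns from pre-mRNA on the spliceosome, which is assembled from small nuclear ribonucleoproteins (snRNPs). The U1 snRNP recognises the 5′ splice site, the U2 snRNP the branch point, and the U4/U6.U5 tri-snRNP brings in the RNAs that form the catalytic core. Each of the snRNAs is held by a ring of Sm or LSm proteins. SR proteins mostly promote, and hnRNP proteins often repress, the use of nearby exons, and many of them also act in RNA export, stability and translation. The promoters of such widely expressed genes are typically rich in CpG and carry H2A.Z on the nucleosomes beside the start site.

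In replicate 1, 17 of the 83 splicing genes (20.5%) had a promoter peak, beside 15.7% of all protein-coding genes. In replicate 2 the count was 43 (51.8%), beside 30.4%. A peak was present in both replicates at 16 genes (19.3%), beside 12.0%. The mean over the replicates was 30 ± 18.4 genes (SD, n = 2), the longer list giving the larger number. With each list cut to the 6158 strongest peaks, the counts were 17, 34 and 14, and the shares of all protein-coding genes were 15.7%, 19.2% and 9.69%. Of the 83 genes, 27 had a peak in replicate 2 only, 1 (Lsm12) in replicate 1 only, and 39 in neither.

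CpG-rich start regions were commoner among the splicing genes than among all coding genes. Of the 83 genes, 29 (34.9%) had at least 55% GC and an observed-to-expected CpG ratio of at least 0.6 around the 5′ end of the gene, against 23.2% of all coding genes. Among the 5089 CpG-rich coding genes, a replicate 1 peak was seen at 26.3%, a replicate 2 peak at 48.6% and both at 21.5%. The 29 CpG-rich splicing genes had 9 (31.0%), 17 (58.6%) and 9 (31.0%). The 54 splicing genes that were not CpG-rich had 14.8%, 48.1% and 13%, beside 12.5%, 24.9% and 9.18% of the coding genes that were not CpG-rich. The part of CpG content in the counts was not tested.

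The peaks were not spread evenly over the roles. The 20 hnRNP genes held 10 of the 16 genes with a peak in both replicates, and 17 of them had a peak in replicate 2. The other 63 splicing genes included 7 with a replicate 1 peak (11.1%), 26 with a replicate 2 peak (41.3%) and 6 with both (9.52%). Without the hnRNP genes, the shares in replicate 1 and in both replicates were thus lower than the 15.7% and 12.0% of all coding genes, and that in replicate 2 was higher than 30.4%. The roles were defined by gene name and cannot serve as replicates, so this difference was described and not tested.

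**Figure D1:**
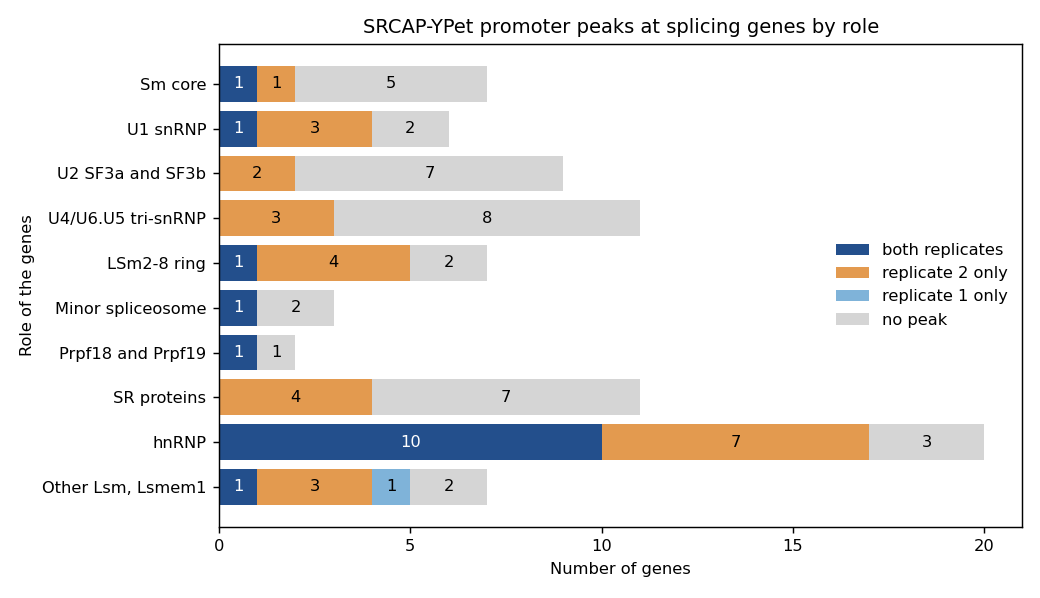
Number of splicing genes in each role (vertical axis) by class of promoter peak, with the number of genes on the horizontal axis and colours for a peak in both replicates, in 1 replicate only or in neither. Of the 20 hnRNP genes, 10 had a peak in both replicates, beside 12.0% of all coding genes. No gene of the U2 SF3a and SF3b, tri-snRNP or SR protein groups did. These groups are small (9, 11 and 11 genes), and the contrast was not tested.

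**Figure D2:**
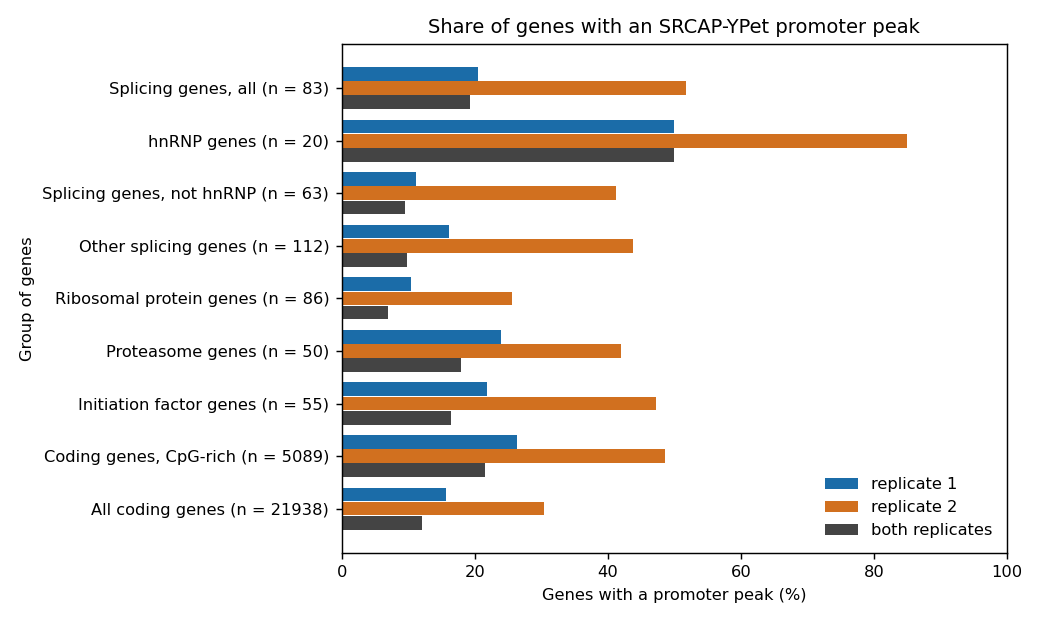
Share of genes with an SRCAP-YPet promoter peak (horizontal axis, percent) for groups of genes (vertical axis, n in brackets), with 1 bar each for replicate 1, replicate 2 and both replicates. The hnRNP bars reach 50.0%, 85.0% and 50.0%, and those of the other splicing genes in the symbol list 11.1%, 41.3% and 9.52%.

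Sequences under some of the reproducible hnRNP peaks are shown next because these peaks lay mostly beside the start sites and not on them. Of the 9 hnRNP genes whose peaks overlapped between replicates, 4 with intergenic midpoints are shown, chosen after their values were seen, and they do not stand for the other 5. Each is the stretch covered by the peaks of both replicates, cut to its central 300 bases where longer, read 5′ to 3′ on the strand of the gene in mm10, the assembly GRCm38. Capitals mark CCAAT or its reverse complement, the letters bound by NF-Y, and GGGCGG or its reverse complement, the letters bound by Sp1 and its relatives. Snrnp25 is added, after its values were seen, as the snRNP gene with the most CCAAT matches in a segment free of annotated untranslated regions. The Hnrnpa0 segment is chr13:58129091-58129390 on the minus strand, that of Hnrnpa2b1 is chr6:51470002-51470301 on the minus strand and that of Hnrnpab is chr11:51606983-51607235 on the minus strand. The Hnrnpc segment is chr14:52104215-52104477 on the minus strand and that of Snrnp25 is chr11:32205249-32205411 on the plus strand.
Hnrnpa0: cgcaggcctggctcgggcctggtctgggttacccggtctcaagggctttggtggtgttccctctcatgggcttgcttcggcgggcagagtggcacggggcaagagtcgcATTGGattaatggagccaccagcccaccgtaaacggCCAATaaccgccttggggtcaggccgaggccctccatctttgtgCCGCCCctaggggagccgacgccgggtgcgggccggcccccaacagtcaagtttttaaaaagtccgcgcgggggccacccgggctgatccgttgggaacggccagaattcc
Hnrnpa2b1: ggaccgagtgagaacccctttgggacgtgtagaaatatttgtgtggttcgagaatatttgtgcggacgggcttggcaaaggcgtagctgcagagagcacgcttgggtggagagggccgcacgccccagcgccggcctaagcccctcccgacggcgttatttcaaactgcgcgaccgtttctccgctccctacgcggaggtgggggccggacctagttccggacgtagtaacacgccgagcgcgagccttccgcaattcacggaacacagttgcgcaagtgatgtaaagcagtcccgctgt
Hnrnpab: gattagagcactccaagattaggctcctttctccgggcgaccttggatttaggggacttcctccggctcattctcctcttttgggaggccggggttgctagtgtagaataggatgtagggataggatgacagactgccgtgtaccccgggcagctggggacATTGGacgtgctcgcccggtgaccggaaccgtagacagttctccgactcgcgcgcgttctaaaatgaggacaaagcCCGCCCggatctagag
Hnrnpc: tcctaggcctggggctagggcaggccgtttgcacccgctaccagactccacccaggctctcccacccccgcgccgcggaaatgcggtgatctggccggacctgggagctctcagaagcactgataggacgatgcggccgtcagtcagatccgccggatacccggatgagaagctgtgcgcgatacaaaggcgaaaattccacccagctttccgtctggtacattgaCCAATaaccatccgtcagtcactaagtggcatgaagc
Snrnp25: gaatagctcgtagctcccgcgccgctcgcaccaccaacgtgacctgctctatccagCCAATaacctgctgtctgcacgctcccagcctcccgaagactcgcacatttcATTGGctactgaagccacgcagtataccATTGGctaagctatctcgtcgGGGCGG

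The Hnrnpa0, Hnrnpab and Hnrnpc segments are intergenic, and no other gene has a TSS within 2000 bp of their peak midpoints. The Hnrnpa2b1 segment holds none of the 9 sets of motif letters searched, but it has 31 CpG dinucleotides in 300 bases. It lies between Hnrnpa2b1 and Cbx3, a gene pair known for a shared open, methylation-free promoter region. The Hnrnpa1 peaks were centred nearer to the TSS of Cbx5 than to its own. Cbx3 and Cbx5 both encode HP1 proteins, so the closely related genes Hnrnpa1 and Hnrnpa2b1 each have an HP1 gene as neighbour on the other strand.

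CCAAT was found in 10 of the 15 stretches of splicing genes covered in both replicates. These include that of Hnrnpm, whose peak midpoints lay in a coding exon. The same search over 2078 shared regions at coding promoters, at least 150 bp long and cut in the same way, found CCAAT in 35.9%. GGGCGG was in 9 of the 15, against 63.1%. The median length was 263 bp for the splicing genes and 300 bp for all regions, and the median GC content was 61.8% and 64.7%. The remaining letters, searched on both strands, were CCGGAAG (ETS factors), ATGGCGG (YY1), GCGCATGCG (NRF1), TCGCGA (a CpG palindrome), CACGTG (the E-box), TGACGTCA (the CRE) and TATAAA (the TATA box). CCGGAAG was in 1 of the 15, that of Hnrnpll, against 12.1% of the shared regions, and CACGTG in 1, that of Snrpa, against 6.93%. The others were in none of the 15 and in 1.54% to 8.66% of the shared regions.

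The hnRNP genes package nascent transcripts, and their protein products bind motifs such as U-tracts (Hnrnpc), G-runs (Hnrnpf and Hnrnph1) or CA repeats (Hnrnpl). Hnrnpa2b1 had a peak at chr6:51469955-51470349 with a score of 81 in replicate 1 and at chr6:51469955-51470436 with a score of 152 in replicate 2. The score is 10 times the −log10 q-value of the peak caller, and it depends on depth, so levels are read within a list. These scores ranked 374 of 6158 and 208 of 12958.

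Hnrnpa0, an intronless gene whose product binds AU-rich mRNA, had peaks at chr13:58128941-58129541 (score 79) and chr13:58128917-58129637 (score 152). The midpoints lay upstream of its TSS, at offsets of −685 bp and −721 bp. Hnrnpul2, a relative of Hnrnpu, had scores of 57 and 82 at chr19:8819294-8819901 and chr19:8819029-8819953 with both midpoints between its TSS and that of Ttc9c. Hnrnpa1, a repressor of exon inclusion, had scores of 30 and 74, with the peak of replicate 2 (889 bp wide) extending from the Cbx5 intron toward Hnrnpa1. All 4 genes kept their place upstream of the start in both replicates.

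Lower scores were found for Hnrnpd, Hnrnpab and Hnrnpc. Hnrnpd, the AU-rich element binding protein AUF1, had scores of 21 and 63, with both midpoints in a coding exon of the neighbouring gene 4930524J08Rik. Hnrnpab had scores of 20 and 55 and Hnrnpc scores of 19 and 42. With Hnrnpf (21), these were the lowest scores of hnRNP genes in replicate 1, and the peaks of all 3 genes overlapped those of replicate 2.

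Among the 10 hnRNP genes with a peak in both replicates, 8 had the midpoint more than 200 bp upstream of the nearest TSS of the gene in each replicate. Without Hnrnpm, where that TSS lies inside the gene, the count was 7. The midpoints of 5 of the 8 were intergenic in both replicates. For 4 of the 8 (Hnrnpa1, Hnrnpa2b1, Hnrnpd and Hnrnpul2) the TSS of another coding gene was nearer. In replicate 1 the median offset of the hnRNP peaks was −311 bp (n = 10), with a TSS of the gene inside the peak at 3 genes. In replicate 2 it was −302 bp (n = 17), with a TSS inside at 5.

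For the splicing genes outside the hnRNP group the peaks were centred closer to the start site. The median offset was 8.5 bp (n = 7) in replicate 1 and −48.8 bp (n = 26) in replicate 2, and a TSS of the gene lay inside the peak at 3 of the 7 and at 22 of the 26. The offsets in replicate 1 ranged from −330 to 520.5 bp. Over all coding genes with a peak the medians were −10 bp and −8 bp, 23.5% and 22.8% had a midpoint more than 200 bp upstream, and 61.6% and 66.8% had a TSS inside the peak. The upstream position of hnRNP peaks therefore also decides how they are counted. If a TSS had to lie inside the peak, 2 hnRNP genes and 2 others were left in both replicates, and in replicate 2 the hnRNP count was 5 of 20 and that of the others 22 of 63.

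**Figure D3:**
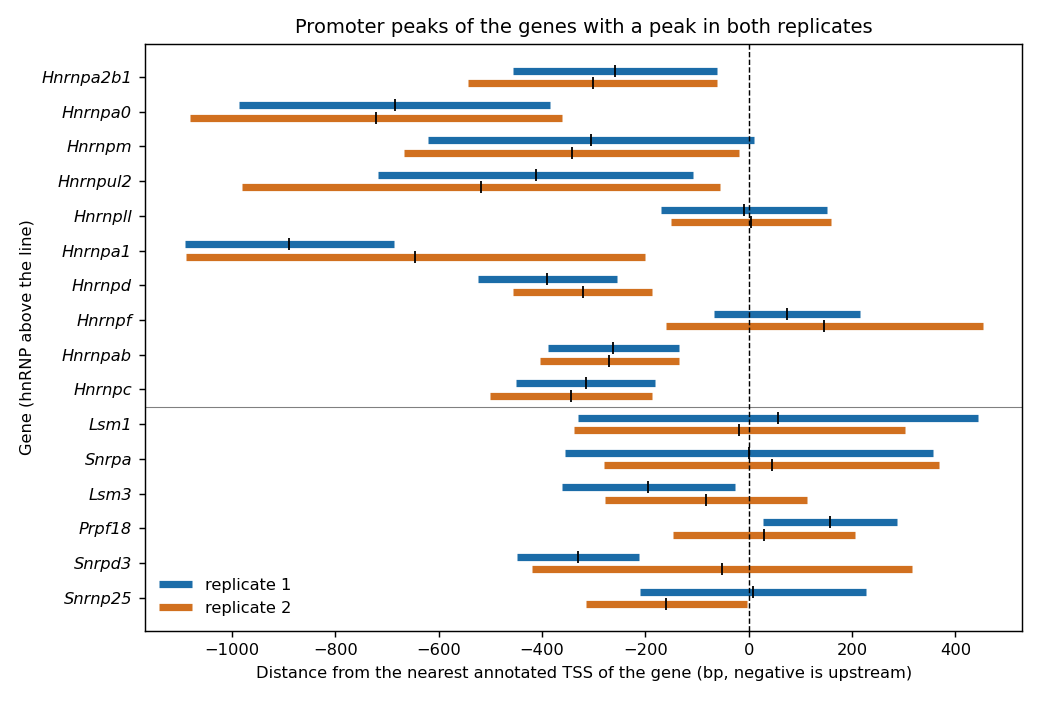
Position of the promoter peaks of the 16 splicing genes with a peak in both replicates (vertical axis, hnRNP genes above the line), as distance in bp from the nearest annotated TSS of the gene (horizontal axis, negative is upstream; for Hnrnpf different TSSs in the 2 replicates). Bars span each peak, ticks mark midpoints, and 8 of the 10 hnRNP genes have both midpoints more than 200 bp upstream.

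Of the hnRNP genes with a peak in both replicates, Hnrnpm and Hnrnpf, both regulators of alternative exons, were counted through start sites inside the gene. The Hnrnpm peaks at chr17:33649678-33650308 (score 90) and chr17:33649706-33650353 (score 86) overlapped by 603 bp and ranked 281 of 6158 and 1090 of 12958. Both midpoints lay in a coding exon of Hnrnpm, and the annotated TSS beside them is 37173 bp downstream of the 5′ end of the gene. The central 300 bases of the shared stretch (chr17:33649857-33650156, minus strand) contain 1 word of 9 letters 7 times, whereas in the other 14 stretches no such word occurred more than 3 times. That word is printed here because it shows the tandem repetition of this coding exon.
Hnrnpm repeated word: agcgcatgg

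The Hnrnpf peaks did not overlap. That of replicate 1 (chr6:117916915-117917195, score 21) and that of replicate 2 (chr6:117906690-117907301, score 36) had midpoints 10060 bp apart at different internal start sites. With 1 TSS per gene, at its 5′ end, 8 hnRNP genes had a peak in both replicates. Outside the hnRNP group the count was 6 of 63 as before, beside 10.4% of all coding genes. In replicate 2 the hnRNP count fell from 17 to 13 and that of the others was 24 of 63, beside 26.4%. The replicate 2 peaks of Hnrnpk and Hnrnpl also lay at internal start sites, 879 and 2349 bp into the gene. Hnrnpll, a regulator of alternative splicing of Ptprc, was the hnRNP gene with both peaks centred on its own start, at offsets of −10 and 4.5 bp and with scores of 33 and 47.

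In replicate 2 only, peaks were present at Hnrnpdl (score 46), Hnrnph1 (48), Hnrnph3 (55), Hnrnpk (63), Hnrnpl (52), Hnrnpr (68) and Hnrnpul1 (50). All 7 scores were above 43, the median of replicate 2 peaks at coding promoters. The 3 hnRNP genes with no promoter peak were Hnrnpa3, Hnrnph2 and Hnrnpu. Hnrnpa3 belongs to the same A/B subfamily as Hnrnpa1 and Hnrnpa2b1, and its nearest peak was 41791 bp from a TSS. Hnrnpu, which codes for the scaffold attachment factor SAF-A, had a peak 4851 bp from a TSS in replicate 2.

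The hnRNP genes differed from the other splicing genes in features of their promoters. Of the 20, 12 were CpG-rich, and the median number of annotated TSSs was 8, with windows covering a median of 4863 bp, against 5 TSSs and 3109 bp in the other 63 genes. More TSSs give a longer window in which a peak can fall. The 83 splicing genes as a whole had a median of 5 TSSs and 3349 bp, against 3 and 3002 bp in all coding genes. With 1 TSS per gene, 15, 37 and 14 of the 83 had a peak in replicate 1, replicate 2 and both. The shares of all coding genes were then 13.6%, 26.4% and 10.4%. Among CpG-rich genes, 6 of 12 hnRNP genes and 3 of 17 others had a peak in both replicates. With windows of 500 bp on each side of a TSS, the counts in both replicates were 9 of 20 and 6 of 63, beside 11.8% of all coding genes, and at equal list lengths 9 of 20 and 5 of 63.

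Of the 6 U1 snRNP genes, 4 (66.7%) had a peak in replicate 2 and 1 (16.7%) in replicate 1. The shares of all coding genes were 30.4% and 15.7%. Snrpa codes for U1-A, which binds a stem loop of U1 snRNA, and was the only U1 gene with a peak in both replicates. Its peaks at chr7:27195915-27196627 (score 66) and chr7:27195877-27196524 (score 50) spanned its TSS, with midpoints 0 and 44.5 bp from the nearest start. The stretch shared by both held the E-box letters CACGTG at 2 places.

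Snrnp70, the U1-70K protein that contacts SR proteins, had a single peak on its TSS in replicate 2 (chr7:45395401-45395936, score 106), and none in replicate 1. Snrpc, which stabilises U1 at the 5′ splice site, had a score of 23. Snrnp70 scored higher in replicate 2 than 14 of the 16 genes found in both, yet had no promoter peak in the shorter list. Prpf39 and Prpf40b had no promoter peak.

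The 7 Sm core genes, which encode the ring shared by most spliceosomal snRNPs, included 1 with a peak in both replicates. This was Snrpd3, with scores of 27 and 42, and its replicate 1 peak was centred 38.5 bp from the TSS of the divergent gene Gucd1. Snrpf had a peak in replicate 2 only (score 28). Snrpb, Snrpd1, Snrpd2, Snrpe and Snrpg had none, and the nearest peak of either list was between 18020 bp (Snrpd2) and 72551 bp (Snrpd1) from a TSS.

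The U2 subcomplexes SF3a and SF3b, which hold the branch point, had no peak in replicate 1 at any of 9 genes. The share of all coding genes was 15.7%. In replicate 2 the share of these U2 genes was 22.2%, beside 30.4%. Sf3a2 (score 42) and Sf3b3 (score 55) had a peak in replicate 2, in both cases nearer to the TSS of a divergent neighbour, Plekhj1 and Cog4. Sf3b1, which contacts the branch point directly, had its nearest peak 25265 bp from a TSS, and Sf3a1, Sf3a3, Sf3b2, Sf3b4, Sf3b5 and Sf3b6 also lacked a promoter peak. Sf3b5 had a peak 2965 bp from a TSS in replicate 2 within its annotated span.

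None of the 11 tri-snRNP genes had a peak in replicate 1, and 3 (27.3%) had one in replicate 2. The shares of all coding genes were 15.7% and 30.4%. Prpf38b, a relative of the tri-snRNP factor Prpf38a, had a score of 100 at chr3:108911475-108911891, centred 13 bp from its TSS. Prpf3, a U4/U6 protein, had a score of 44 and Snrnp40, a U5 protein, a score of 37. The genes without a peak included Prpf8, the scaffold of the catalytic core, and Snrnp200, the helicase that unwinds U4 from U6. The others were Prpf31, Prpf38a, Prpf4, Prpf4b, Prpf6 and Snrnp27.

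The ring of Lsm2 to Lsm8, which binds the 3′ end of U6 snRNA, had peaks at 5 of 7 genes in replicate 2. That share was 71.4%, beside 30.4% of all coding genes. Lsm3 had peaks in both replicates, with scores of 37 and 55. Both midpoints were nearer to the TSS of Xpc, a DNA repair gene on the other strand. Lsm2 (30), Lsm4 (23), Lsm5 (24) and Lsm6 (45) had a peak in replicate 2 only, and Lsm7 and Lsm8 had none. Lsm1 replaces Lsm8 in the cytoplasmic ring that acts in mRNA decay, and it had scores of 45 and 96 at chr8:25784959-25785732 and chr8:25784950-25785589, across the starts of both Lsm1 and Bag4.

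Of the late-acting and minor spliceosome genes, Prpf18, a factor of the second splicing step, had scores of 41 and 34. Prpf19, a ubiquitin ligase of the spliceosome, had no peak. Snrnp25, a protein of the U11/U12 snRNP that recognises minor introns, had scores of 21 and 65, with CCAAT at 3 places in the shared stretch of 163 bp. Snrnp35 and Snrnp48 of the same snRNP had none.

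None of the 11 SR protein genes had a peak in replicate 1, beside 15.7% of all coding genes. Their replicate 2 share was 36.4%, beside 30.4%. In replicate 2 there were peaks at Srsf2 (48), Srsf5 (50), Srsf7 (44) and Srsf11 (39, with another peak of equal score at a TSS 5068 bp into the gene). The peaks of Srsf2 and Srsf7 and 1 of those of Srsf11 were nearer to the TSS of the neighbours Mfsd11, Ttc39d and Lrrc40. The prototype Srsf1 and Srsf3, Srsf4, Srsf6, Srsf9, Srsf10 and Srsf12 had no promoter peak. Of the 11 SR genes, 6 were CpG-rich.

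Of the symbols taken in without a known splicing role, Lsm10, which belongs to the U7 snRNP of histone mRNA processing, had a replicate 2 peak of score 50. Lsm14a (28) and Lsm14b (22), components of cytoplasmic mRNA granules, also had one in replicate 2 only. Lsm12 was the single gene with a peak in replicate 1 only (score 26), centred 520.5 bp downstream of a TSS. Lsm11 and Lsmem1 had none.

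**Figure D4:**
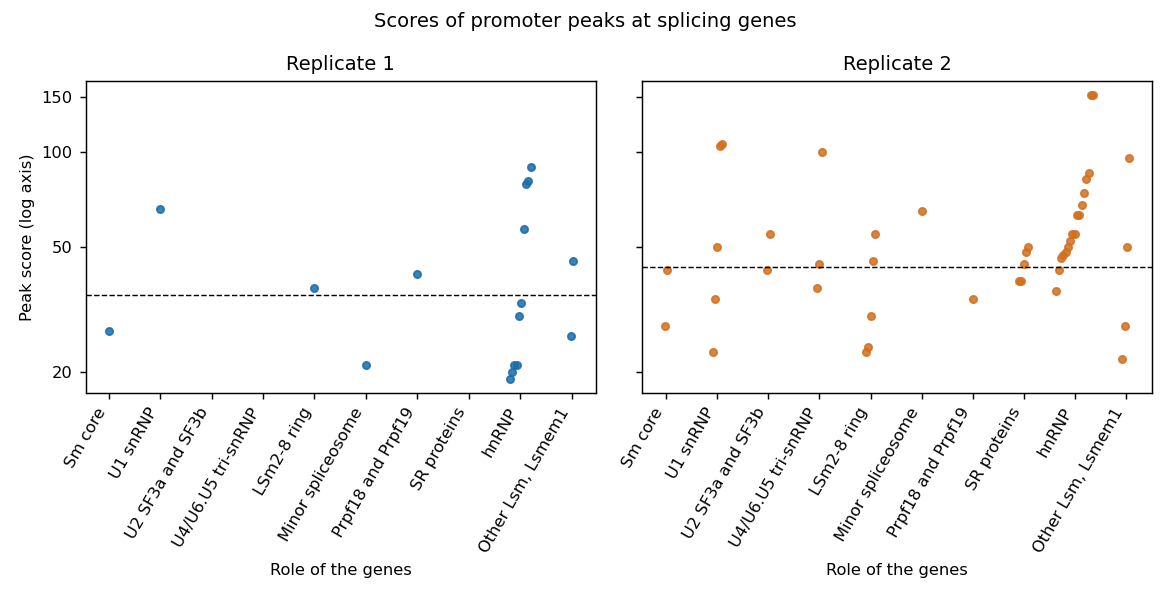
Scores of the promoter peaks at splicing genes (vertical axis, log scale; 10 times the −log10 q-value) by role (horizontal axis), with replicate 1 on the left and replicate 2 on the right and 1 point per peak. Dashed lines mark the median score of peaks at coding promoters in the same list, 35 and 43, and the highest points are hnRNP genes, at 90 in replicate 1 and 152 in replicate 2.

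The median score of the splicing genes was close to that of all promoter peaks in each list. In replicate 1 the median was 33 (17 peaks, range 19 to 90), beside 35 for peaks at coding promoters. In replicate 2 it was 48 (45 peaks, range 22 to 152), beside 43. The highest scores in the lists were 4910 and 6452, far above those of any splicing gene, although by rank the strongest were high in their lists, with Hnrnpm at 281 of 6158 in replicate 1 and Hnrnpa0 and Hnrnpa2b1 at 208 of 12958 in replicate 2.

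In replicate 2, genes with a peak in both replicates had a median score of 59 (range 34 to 152) and those with a peak there only of 45 (range 22 to 106), so the classes overlapped widely. For the 16 genes with peaks in both, Spearman's rho between the scores was 0.578 (n = 16 genes from the same 2 libraries). The peaks overlapped at 15 of the 16, with a median shift of the midpoint of 76 bp. Hnrnpab was among the closest, with a shift of 7.5 bp and the same left border.

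The 39 genes without a promoter peak were not near misses by distance. None had a peak of either list within 2000 bp of a TSS, 2 had one within 5000 bp and 7 within 10000 bp, with a median distance of 23121 bp. Of these 39, Sf3b5 alone had a peak inside the gene but outside the windows, in replicate 2.

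Divergent partners were frequent among splicing genes. A coding gene started head to head on the other strand, at most 1000 bp away or overlapping by up to 200 bp, at 28 of the 83 genes (33.7%), against 11.3% of all coding genes. Of these 28, 8 (28.6%) had a peak in both replicates and 18 (64.3%) in replicate 2, beside 25.4% and 55.5% of all coding genes with a partner. Of the 55 without such a partner, 8 (14.5%) and 25 (45.5%) did, beside 10.3% and 27.2% of all coding genes without one. Another coding TSS was nearer to the peak at 6 of the 17 genes of replicate 1 and 11 of the 43 of replicate 2, so these peaks cannot be assigned to the splicing gene rather than its neighbour. Without such peaks, 11, 32 and 9 of the 83 genes were left in replicate 1, replicate 2 and both, beside 13.8%, 27.1% and 10.2% of all coding genes, so only the replicate 2 count stayed clear of the background.

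Coding genes on chromosome 8 had more peaks than those elsewhere (22.1% against 11.5% in both replicates, and 41.4% against 29.8% in replicate 2). The splicing genes there, Lsm1, Lsm4, Lsm6 and Sf3b3, all had a peak in replicate 2, and Lsm1 in both. Without them, 15 of 79 genes (19.0%) had a peak in both replicates.

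RefSeq promoters, from 250 bases before to 50 after the start in the GRCm38 tables, were matched by symbol for 71 of the 83 genes, giving 90 promoters. CCGGAAG was in 30.0% of them and in 11.9% of 20150 coding promoters, and ATGGCGG in 20% and 5.38%. CCAAT was in 46.7% and 37.8%, GGGCGG in 71.1% and 47.8%, and TCGCGA in 10% and 3.43%. CACGTG was in 12.2% and 8.03%, GCGCATGCG in 5.56% and 2.45%, and TGACGTCA in 3.33% and 2.31%. TATAAA was less frequent than in all coding promoters, at 7.78% and 12.1%. In the hnRNP promoters CCAAT was in 17 of 27 (63.0%), CCGGAAG in 14.8% and ATGGCGG in 25.9%, and in the 63 promoters of the other splicing genes in 39.7%, 36.5% and 17.5%. These differences were not tested. The letters are a description of the promoter and do not show that a factor binds there.

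Splicing factors outside the symbol list were counted in the same way. Of 112 such genes, 18 (16.1%) had a replicate 1 peak, 49 (43.8%) a replicate 2 peak and 11 (9.82%) both. Those in both included Sf1, the branch point binding protein, with scores of 68 and 20, and Acin1, a component of the exon junction complex, with 46 and 138. The 18 other RNA-binding regulators among them, which like hnRNP proteins act on splice site choice, had 2 genes with a replicate 1 peak and 13 with a replicate 2 peak. Tial1 was among those with both, with scores of 87 and 43. The 16 exon junction and SR-related genes had 6 with a replicate 1 peak (37.5%), 7 with a replicate 2 peak (43.8%) and 3 with both (18.8%).

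Other housekeeping families gave a further background. The 86 cytosolic ribosomal protein genes had a peak in 10.5%, 25.6% and 6.98% (replicate 1, replicate 2 and both). For the 50 proteasome genes the shares were 24.0%, 42.0% and 18.0%, and for the 55 translation initiation factor genes 21.8%, 47.3% and 16.4%. The 19.3% of all splicing genes with a peak in both was near the 18.0% of the proteasome genes and the 16.4% of the initiation factor genes, and the 10 of 20 of the hnRNP genes was above each of them, a difference that was not tested.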

How the data were processed

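For each library the authors deposited a peak list called in that library alone, which gives the position, name and score of each peak. The submitters' processing notes name STAR, Picard and MACS2, the genome mm10 and, for the spike-in, dm6, without versions. The deposited score is a whole number of at least 13 and was read as 10 times the −log10 q-value cut to a whole number, as in a threshold of q = 0.05. The study's methods for ChIP-seq and CUT&Tag describe unique alignment, removal of duplicates and of reads outside chromosomes 1 to 19, X and Y, downsampling to equal Drosophila reads, paired-end calling with MACS2 and exclusion of blacklisted regions. Both lists hold mitochondrial peaks, which that chromosome filter would remove, so it is not certain that each step was applied to them, and the use of a control library in calling is not given for them. No intervals or detection limits could be set because reads are not listed.

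Peaks were assigned to GENCODE release 21 genes on GRCm38, the assembly of mm10, with Python 3.11.15, numpy 2.4.6, scipy 1.17.1 and matplotlib 3.10.9. Mitochondrial genes were left out. Overlap counting was checked on simulated peaks. With 1 group no test between groups exists, and genes are not replicates, so counts are set beside all protein-coding genes without a p-value. Every gene was named with its class, apart from an item that is not reported here, with scores and mostly positions for those with a peak in both replicates; these were fewer than the 20 best by the worse of both ranks that the rule allowed. The members and lists were chosen with earlier results of these data known. Other windows, transcripts, score limits and list lengths were tried.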

Additional observations from a re-analysis of the deposited data

How the results depend on the processing

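Of 57 alternatives over 7 results, 43 stayed within 1.5 times the count or within 1 SD. Among these, leaving out 1 of 2 replicates cannot move the median score by more than 1 SD, so that outcome was fixed. The counts depended mostly on how close a peak must be and how strong. With a TSS inside the peak, 6 genes kept a replicate 1 peak, 27 a replicate 2 peak and 4 both, in place of 17, 43 and 16. All coding genes then had 9.73%, 20.6% and 6.97%. The share of the 83 splicing genes was thus below that of all coding genes in replicate 1 and in both, and above it in replicate 2. At a score of at least 50 the counts were 5, 22 and 5, with 61 in neither in place of 39, and all coding genes had 4.21%, 13.1% and 2.99%. With the strongest 3079 peaks of each list they were 9, 13 and 5, with 66 in neither, and all coding genes had 9.38%, 10.6% and 4.78%. An alternative chosen after seeing the data required that no other coding TSS be nearer to the peak. It left 11 of the 83 splicing genes in replicate 1 and 9 in both, and all coding genes had 13.8% and 10.2%. These 2 counts were then near the background. In replicate 2, 32 genes were left, beside 27.1%, which stayed above it. The mean number of genes with a peak, 30, ranged from 17 to 43 when 1 replicate was left out, and the median score from 33 to 48. Without chromosome 8, also added after seeing the data, no count moved by more than 1.5 times. No paired analysis was possible because both libraries belong to the same group. With 2 lists of unknown depth, a gene found in replicate 2 only cannot be told apart from one below the threshold of replicate 1.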
